A study of Mus musculus and blank sample with 191 samples.

Results

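Endometrial stroma was compared between Thra1PV/+ mice, which carry 1 copy of the PV allele of the gene for thyroid hormone receptor alpha 1, and wild-type (WT) mice, using the regions of the first collection plate that are titled stroma. There were 35 such regions of 189 in the series, 21 from 6 Thra1PV/+ mice and 14 from 7 WT mice, out of 14 mice that the labels number in all, while the series' design text counts 13. The mutant mice were aged 2.4 to 6.3 (median 4.1) and the WT mice 4.0 to 9.0 (median 6.3). The labels give no unit for age, and the numbers are read here as months. The PV allele is a knock-in present in all tissues, the labels name no other allele or treatment for either group, and the study's methods describe matching females by stage of the estrous cycle, at metestrus. The labels give no stage for single mice, and the time of day of collection was not found in them or in the methods. Stroma regions of the second plate were not used in the main comparison, because its region labels may be shifted in part by 1 well, which was not checked here.

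The regions were areas of fixed, paraffin-embedded uterus profiled with the GeoMx Whole Transcriptome Atlas, in which DNA-barcoded probes are released by light from a chosen area and counted by sequencing. A veterinary pathologist chose the areas on morphology and on staining for pancytokeratin and smooth muscle actin, so levels of keratins and of Acta2 are partly fixed by that choice. Each region holds many cells of several types, so fewer cells of a type and less RNA per cell cannot be told apart. Regions of the same mouse share it, and counts were therefore summed over the stroma regions of each mouse, which was the replicate. Mice are named here by genotype and number, PV1 to PV6 and WT1 to WT8. WT6 had no stroma region on this plate.

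Thyroid hormone receptor alpha 1 is a nuclear receptor that activates or represses target genes depending on whether thyroid hormone is bound. The PV mutation changes the end of the protein, abolishes hormone binding and leaves a receptor that acts as a dominant negative on the normal one. Uterine stroma is the fibroblast-rich layer under the epithelium. It carries receptors for estrogen and progesterone, receives Indian hedgehog from the epithelium through the receptor Ptch1 and the transcription factor Gli1, and becomes the decidua in pregnancy. Klf9 is a transcription factor and a direct target of thyroid hormone receptors that also partners with the progesterone receptor in the uterus.

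The total count of a stroma region lay between 85336 and 1160209 (median 533321). Summed per mouse, the counts ran from 85336 to 5195249 in the mutants and from 373231 to 2213995 in WT mice. PV1 gave 10 of the 21 mutant regions and PV2 a single region. In PV2, 3199 of 14881 targets (21.5%) were listed at 1 count, the value that replaces 0 in the table, and 1 count corresponds there to 3.64 on the log2 CPM scale (log2 of CPM, counts scaled to a common library total, with a prior count of 2). The levels of PV2 correlated with those of the other mice across targets at 0.641 to 0.69, against a median of 0.815 over pairs of mutants and 0.884 over pairs of WT mice. How gene list counts moved without PV1 or PV2 is given below.

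The fibroblast markers were high in these regions and those of epithelium low. The animal means of Dcn, a collagen-binding proteoglycan, lay at 8.07 to 10.66 in stroma and 4.86 to 7.06 in epithelium on the log2(Q3 value + 1) scale, in which a region's counts are divided by its third-quartile factor. Col1a1, a chain of type I collagen, lay at 8.88 to 12.50 against 5.21 to 8.63. Krt8, a keratin of simple epithelium, lay at 3.57 to 6.35 against 8.61 to 10.29 and Epcam, an epithelial adhesion protein, at 3.00 to 4.86 against 6.77 to 8.57, so neither marker pair overlapped between the compartments. The summed level of 12 columnar epithelium markers ran from 229 to 743 CPM in the mutants and 231 to 531 CPM in WT mice. That of 10 smooth muscle markers ran from 1210 to 2766 CPM and 844 to 2272 CPM.

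3 promoters show the sequence context of genes described below, each from RefSeq on GRCm38.p6, running from 250 bases before to 50 after the gene start on the gene's own strand. Klf9 is shown as a thyroid hormone target that DESeq2 called (chr19:23140976-23141275, plus strand), with capitals on CACCC, the core of the GC-rich sites bound by Kruppel-like factors, found once, 84 bases before the start. Per3 is shown for the clock genes (chr4:151044616-151044915, minus strand), with capitals on 2 D-boxes, TTATGTAA, 205 and 158 bases before the start. Cxcl10 is shown for the chemokines of PV1 (chr5:92348840-92349139, minus strand), with capitals on the core of an interferon-stimulated response element, GAAA followed after 2 bases by GAAA, 213 bases before the start.
Klf9: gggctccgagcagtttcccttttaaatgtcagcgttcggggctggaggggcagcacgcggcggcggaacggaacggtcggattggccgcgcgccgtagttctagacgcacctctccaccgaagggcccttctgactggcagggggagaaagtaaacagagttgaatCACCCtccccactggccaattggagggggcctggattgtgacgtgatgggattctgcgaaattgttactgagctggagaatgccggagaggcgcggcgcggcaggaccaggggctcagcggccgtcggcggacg
Per3: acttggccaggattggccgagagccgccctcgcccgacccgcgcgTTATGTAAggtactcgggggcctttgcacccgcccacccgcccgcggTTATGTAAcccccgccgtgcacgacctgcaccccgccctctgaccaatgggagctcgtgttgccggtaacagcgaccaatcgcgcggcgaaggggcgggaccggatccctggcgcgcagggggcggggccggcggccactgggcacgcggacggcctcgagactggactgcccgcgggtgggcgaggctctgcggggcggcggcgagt
Cxcl10: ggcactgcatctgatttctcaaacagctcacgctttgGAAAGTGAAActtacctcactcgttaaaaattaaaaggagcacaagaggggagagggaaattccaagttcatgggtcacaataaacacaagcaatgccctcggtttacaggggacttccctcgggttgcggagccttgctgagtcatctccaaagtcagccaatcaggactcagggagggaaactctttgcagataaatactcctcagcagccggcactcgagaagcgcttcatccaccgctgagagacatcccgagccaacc
Read on both strands, CACCC stood in 57.5%, TTATGTAA in 0.938% and the interferon-stimulated core in 3.44% of all 32851 promoters of this length. The thyroid hormone response half-site AGGTCA, which stood in 16.3% of them, was not found in the Klf9 window. Of the 19 clock and clock-output genes 16 matched a promoter, and the D-box was found in Per3 alone while the E-box CACGTG, held by 7.15% of all promoters, was found in 5 (Bhlhe41, Ciart, Cry1, Per1 and Tef). Of 18 progesterone and Hedgehog genes 14 matched, and the GLI site GACCACCCA, held by 0.253% of promoters, was found in 0. A match describes these letters only.

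Across all 14881 targets, edgeR's quasi-likelihood test called 0 DEG between mutant and WT stroma at an adjusted p under 0.05 (0.0% of targets), with a lowest adjusted p of 0.579. At an unadjusted p under 0.05 there were 524 targets (3.52%), of which 316 were higher (2.12%) and 208 lower (1.4%) in the mutants. DESeq2 on the same sums called 2, Klf9 and Sult1d1, both lower in Thra1PV/+ stroma. It gave no adjusted p for 28 targets, Ccl2, Iglc1 and Cxcl10 among them, and so could not call these. Limma over regions with the animal as a random block called Klf9 and Sult1d1 too, while limma on animal means called 0. Differences named below therefore did not pass the main test unless another tool is named, and they are given as values with their error. The balance of directions at an unadjusted p under 0.05 depended on the scaling, with 204 higher and 293 lower under upper-quartile scaling and 140 higher and 368 lower with limma on animal means. The median log2 fold change over all targets was 0.01. With age in the model 656 targets were higher and 510 lower at an unadjusted p under 0.05. These are the background for the list counts given below with age in the model.

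Klf9 (chromosome 19, 23141226 to 23168134 of GRCm38, plus strand) was the lowest in Thra1PV/+ stroma of the thyroid hormone response genes. Its level was 5.11, 5.52 and 7.13 log2 CPM at the lowest, median and highest mutant and 6.98, 7.35 and 7.80 in WT. Only PV4, at 7.13, reached the WT range, and 0 of 6 mutants lay above the WT median. The log2 fold change was -1.31 ± 0.28 (SE; edgeR adjusted p 0.579; exact permutation p 0.00117 over 1716 divisions, two-sided), and DESeq2 gave an adjusted p of 0.0248. Without PV4 it was -1.76 and edgeR called it, with an adjusted p of 0.00588, and leaving out each mouse in turn it ran from -1.76 to -1.20. Of the 21 mutant regions, 10 of them from PV1, 17 lay below all 14 WT regions. The WT regions spanned 6.03 to 7.11 on the log2(Q3 value + 1) scale. The 4 regions of PV4 spanned 5.84 to 6.53.

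**Figure D1:**
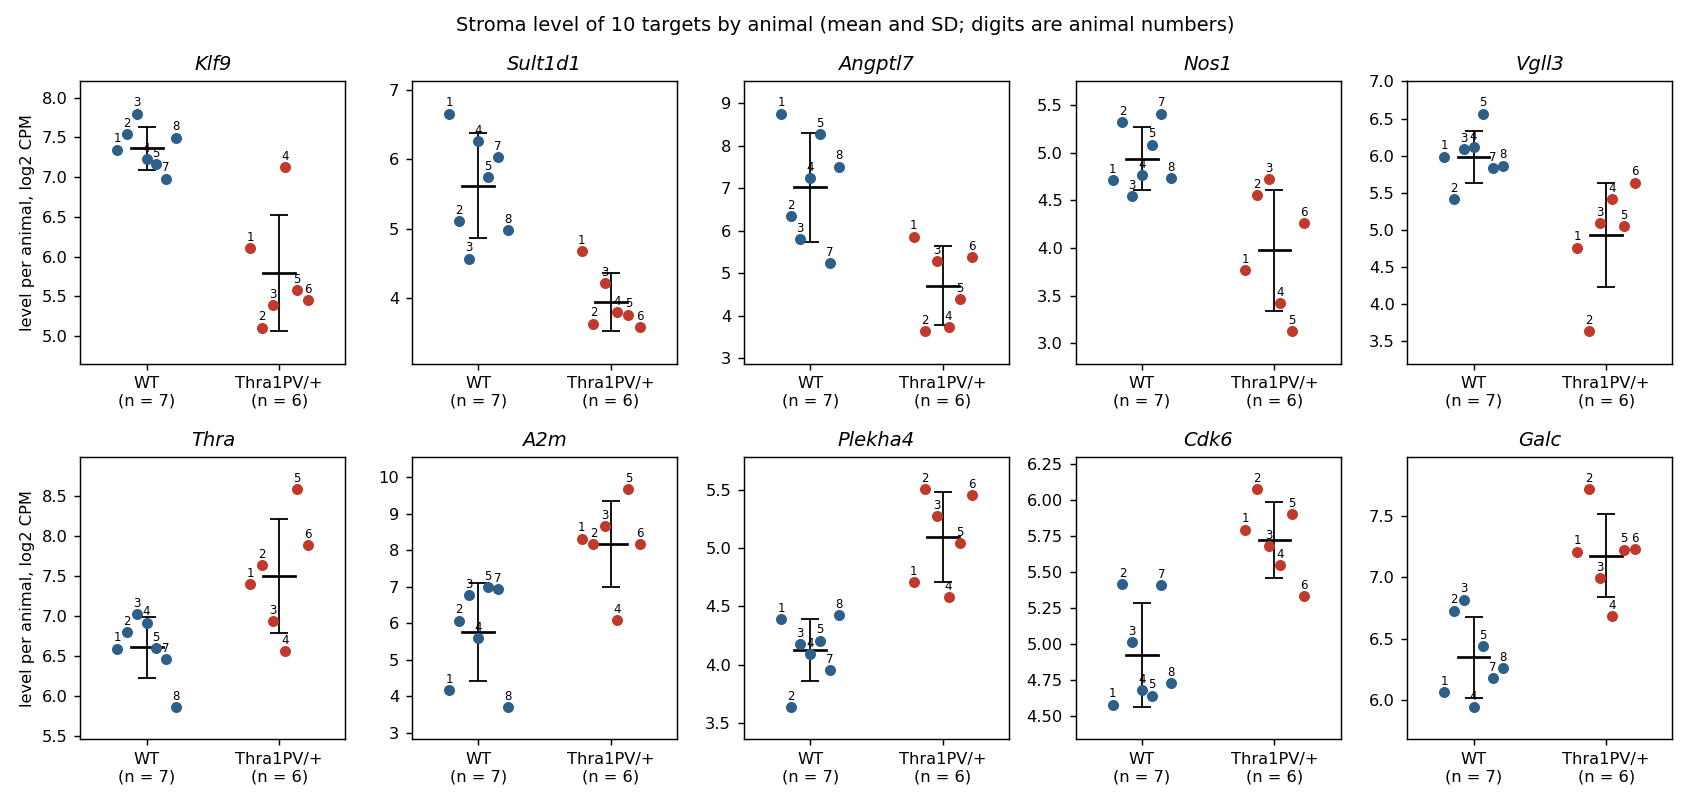
Stroma level (log2 CPM, vertical axis) of 10 targets in 7 WT and 6 Thra1PV/+ mice, 1 point a mouse with its number, and bars for the mean and SD. Klf9 lies at 5.11 to 7.13 in the mutants and 6.98 to 7.80 in WT mice with PV4 inside the WT range, and Plekha4 is the target shown here whose groups do not overlap.

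Of 13 thyroid hormone response genes tested, Klf9 was the member lower at an unadjusted p under 0.05 and Bcl3, a co-regulator of NF-kappa-B, the member that was higher (1.22 ± 0.50), against 1.4% and 2.12% of all targets. Without PV1 the Bcl3 value was -0.28. Thrsp, a lipogenic target of thyroid hormone, gave -0.50 ± 0.26 and Nrgn, a calmodulin-binding protein, -0.34 ± 0.25. Hr, a corepressor and textbook target of the receptor, gave -0.00 ± 0.33 at 1.99 times the level of the negative probes. Among 16 Kruppel-like factors Klf9 was the 1 member at an unadjusted p under 0.05, and Klf2, Klf3 and Klf5 lay between -0.32 and -0.28.

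Among 20 receptors, receptor partners and transporters of thyroid hormone, Thra itself was the 1 member past that threshold. It lay at 6.56, 7.52 and 8.58 log2 CPM at the lowest, median and highest mutant and at 5.87, 6.60 and 7.03 in WT, a log2 fold change of 0.99 ± 0.29 (edgeR adjusted p 0.959; exact permutation p 0.0134). PV3 and PV4 lay within the WT range and the other 4 mutants above it. The probe does not tell the mutant from the normal allele, so the level does not check the genotype. Thrb, the other thyroid hormone receptor, gave -0.09 ± 0.24 at about background (2.00 times the negative probes), and Ncoa3, a coactivator, 0.20 ± 0.20.

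Besides Klf9, the targets lower in Thra1PV/+ stroma with the lowest p included enzymes, an ion channel and a secreted protein. Sult1d1 (chromosome 5, 87554645 to 87569027, minus strand), a cytosolic sulfotransferase, lay at 3.59, 3.78 and 4.67 log2 CPM at the lowest, median and highest mutant and at 4.57, 5.74 and 6.65 in WT. PV1 alone reached into the WT range, above WT3, and the difference was -1.76 ± 0.34 (exact permutation p 0.00175; DESeq2 adjusted p 0.00234). The mutant level was 1.82 times that of the negative probes, close to background, and with the second plate added as labelled the difference was -0.37 ± 0.70. In that setting, whose labels are in doubt, the epithelial markers Krt8 and Epcam gave 1.40 ± 0.76 and 1.14 ± 0.66 in regions labelled stroma, against 0.43 ± 0.28 and 0.35 ± 0.25 on the first plate. Angptl7, a secreted angiopoietin-like protein, lay at 3.64, 4.83 and 5.86 in the mutants and at 5.23, 7.24 and 8.76 in WT (-2.45 ± 0.54). It overlapped between the groups, with 0 of 6 mutants above the WT median.

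The voltage-gated potassium channel Kcnd3 (-1.36 ± 0.36) was also among the 10 with the lowest p, at 1.76 times the negative probes in the mutants. So were Vgll3, a cofactor of TEAD transcription factors (-0.90 ± 0.21), Nos1, neuronal nitric oxide synthase (-1.09 ± 0.26), and Asl, the arginine-making enzyme argininosuccinate lyase (-1.43 ± 0.35). Ramp1, a subunit of the receptor for calcitonin gene-related peptide, gave -1.10 ± 0.29 and Vldlr, a lipoprotein receptor, -0.83 ± 0.22. In each of the targets named here no mutant lay above the WT median. Leaving out any mouse kept each of them lower in Thra1PV/+ stroma, and edgeR's adjusted p passed 0.05 for Klf9 alone.

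The targets higher in Thra1PV/+ stroma with the lowest p were led by A2m (chromosome 6, 121635376 to 121679227, plus strand), a secreted protease inhibitor. It lay at 6.08, 8.24 and 9.66 log2 CPM at the lowest, median and highest mutant and at 3.72, 6.08 and 6.99 in WT, and PV4 alone lay within the WT range. The difference was 2.32 ± 0.52 (edgeR adjusted p 0.579; exact permutation p 0.00641). Of the 21 mutant regions, 10 of them from PV1, 9 lay above all WT regions. Plekha4, a phosphoinositide-binding adaptor, lay at 4.58, 5.16 and 5.51 in the mutants and 3.64, 4.17 and 4.43 in WT. These groups did not overlap, and its exact permutation p of 0.000583 is the smallest the design allows (0.90 ± 0.21). Plekha4 was named for its low p in these same mice, so that p is not separate support.

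Cdk6, a cyclin-dependent kinase (0.77 ± 0.19), and Galc, a lysosomal galactosidase (0.80 ± 0.20), lay above the WT median in 6 of 6 mutants. Spry1, an inhibitor of growth factor signalling (1.17 ± 0.27), did so in 4 and Spink12, a protease inhibitor of the Kazal family (1.09 ± 0.25), in 5. Across all targets, 4 had all mutants above all WT mice (0.0269%) and 3 had all mutants below (0.0202%). The former were Plekha4, Mrps6, a mitochondrial ribosomal protein, Rhbdf1, an inactive rhomboid protein, and Setbp1, a SET-binding nuclear protein. The latter included Pomk, a kinase of alpha-dystroglycan, and Rfng, a fucose-modifying glycosyltransferase. Except for Plekha4 these names were chosen after their values were seen. In the 3 lower ones PV2 was listed at 1 count. For any target, each of these full separations is 1 of the 1716 divisions of the mice. That is a larger share than 0.0269% or 0.0202%.

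Plasma cell transcripts were more abundant in the stroma of most mutants. Jchain (chromosome 5, 88519809 to 88527891, minus strand), which joins the units of secreted IgA and IgM, lay at 5.92, 10.21 and 11.12 log2 CPM at the lowest, median and highest mutant and at 3.95, 4.55 and 8.78 in WT. PV4, at 5.92, lay within the WT range, and the other 5 mutants, from 9.00 upwards, lay above every WT mouse. The difference was 3.15 ± 0.82 (edgeR adjusted p 0.828; exact permutation p 0.00932). Igha, the constant region of the IgA heavy chain, gave 3.19 ± 1.03, with mutants at 8.23 to 13.86 and WT mice at 3.78 to 11.24. In Igha as in Jchain 12 of 21 mutant regions lay above all WT regions. PV1 gave 10 of the 21, and regions of a mouse are not replicates.

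Of 11 B and plasma cell genes, 5 were higher and 0 lower at an unadjusted p under 0.05, against 2.12% and 1.4% of all targets, with a median log2 fold change of 0.49 against 0.01 over all targets. These were Jchain, Igha, Igkc, the kappa light chain (2.99 ± 1.03), Mzb1, a chaperone of antibody secretion (1.03 ± 0.34), and Prdm1, a transcription factor of plasma cells (0.58 ± 0.21), and the count was 5 without PV1, 5 without PV2 and 4 with age in the model. The summed level of the list ran from 1165 CPM (PV4) to 30663 CPM (PV1) in the mutants and from 421 to 6102 CPM (WT1) in WT mice, so PV4 fell inside the WT range. Iglc1, a lambda light chain constant region outside that list, gave 3.89 ± 0.89, and 1.40 without PV6, whose level was 10.85 log2 CPM. Ighm, the IgM heavy chain, was chosen after its values were seen and gave -0.85 ± 0.41. Immunoglobulin constant regions resemble each other, and how far their probes cross-react was not tested.

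Other leukocyte lists had no member at an unadjusted p under 0.05, namely T cell (6 of 14 listed genes tested), natural killer cell (11 of 11), macrophage (11 of 12), neutrophil (7 of 11), eosinophil and mast cell (3 of 12) and MHC class II (9 of 9). Cd4 and Cd3d were among the T cell genes not tested. Among T cell genes Cd3e gave 0.15 ± 0.26 and Cd8a 0.17 ± 0.29, both under 3 times the negative probes. The macrophage list had a median of -0.35 and the MHC class II list one of 0.39, with Cd74, the invariant chain, at 0.53 ± 0.32. Without PV1 the natural killer list had 2 lower members and a median of -0.36 against -0.10. With age in the model the macrophage median was 0.51, with 3 of 11 genes higher in the mutants, the MHC class II list had 4 of 9 higher, and the T cell, neutrophil and eosinophil and mast cell lists had 1 higher each. That model had 656 higher and 510 lower of all 14881 targets.

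Ccl2, Il1b, Cxcl10 and Junb were higher in the stroma of PV1 than in that of any other mouse. Ccl2 (chromosome 11, 82035571 to 82037453, plus strand), a chemoattractant of monocytes, lay at 10.33 log2 CPM in PV1, at 4.27 to 5.25 in the other 5 mutants and at 3.63 to 5.15 in WT mice. Its log2 fold change of 3.65 ± 0.90 (exact permutation p 0.0851) was 0.33 without PV1. All 10 regions of PV1 lay above every other region, at 7.31 to 10.86 on the log2(Q3 value + 1) scale against a highest value of 5.11 elsewhere. Il1b, a pro-inflammatory cytokine, did the same in 10 of 10 regions and gave 1.79 ± 0.55 with PV1 and 0.14 without.

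Cxcl10, the interferon-induced T cell chemoattractant whose promoter is shown above, lay at 9.48 log2 CPM in PV1, 6.22 in PV4 and 3.64 to 4.78 in the other mutants. WT mice lay at 2.80 to 4.90, and the difference was 3.24 ± 0.77 with PV1 and 1.06 without. Among genes chosen after their values were seen, Ccl7, a monocyte chemoattractant, Bcl3, Ier3, an immediate early survival factor, and Zfp36, an mRNA decay factor, also lay above every other region in 10 of 10 regions of PV1. So did Junb, a subunit of AP-1 (1.19 ± 0.35, and 0.44 without PV1). Cxcl1, a neutrophil chemoattractant, did so in 6.

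The lists moved with that mouse. Of 25 chemokines and cytokines 5 were higher and 0 lower at an unadjusted p under 0.05, and 1 was higher without PV1. Of 16 immediate early genes 5 were higher, and 1 was higher without PV1. Of 15 interferon-stimulated genes 2 were higher, Cxcl10 and Mx1, an antiviral GTPase (0.77 ± 0.31), and 1 was higher without PV1, where the list's median moved from 0.47 to -0.06. The background shares are 2.12% higher and 1.4% lower.

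**Figure D2:**
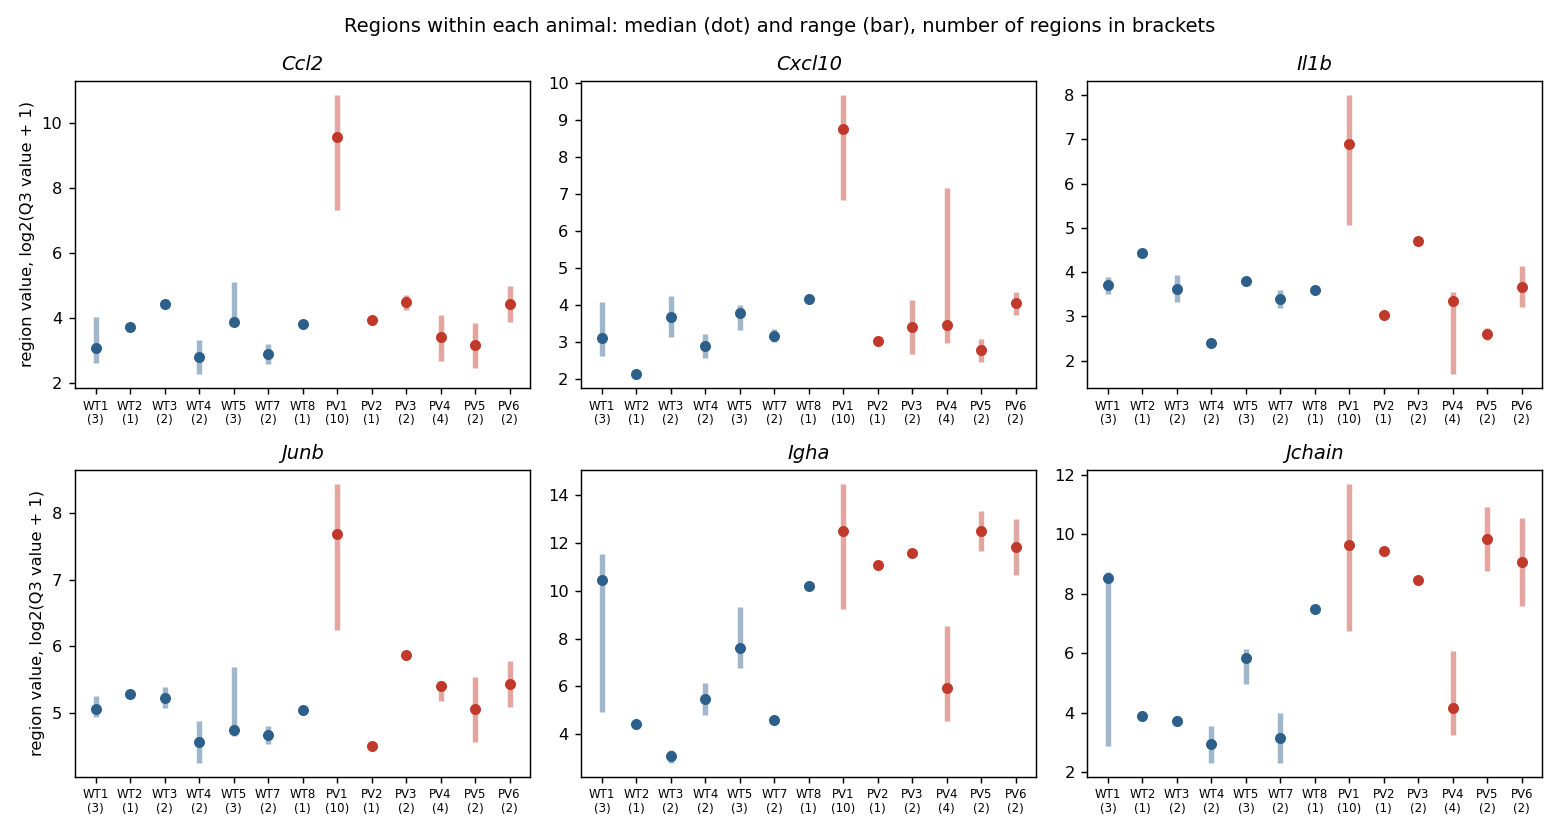
Region values (log2(Q3 value + 1), vertical axis) of 6 targets within each WT (blue) and Thra1PV/+ (red) mouse, dots for the median, bars for the range and the number of regions in brackets. All 10 regions of PV1 lie above all other regions for Ccl2, Il1b and Junb, while Igha and Jchain are high in PV1, PV2, PV3, PV5 and PV6 and in part of the WT mice.

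Ptch1 lay lower in all mutants than in 4 of 7 WT mice. Ptch1 (chromosome 13, 63508328 to 63573598, minus strand), the Hedgehog receptor and a target of the pathway, lay at 4.91, 5.25 and 5.99 log2 CPM at the lowest, median and highest mutant. WT mice lay at 4.64, 7.07 and 7.93, with WT3 and WT5 below all mutants and WT1, WT4, WT7 and WT8 above all of them. The difference was -1.61 ± 0.50 (exact permutation p 0.101).

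Of 17 progesterone and Hedgehog genes, 6 were lower and 1 higher at an unadjusted p under 0.05, against 1.4% and 2.12% of all targets, with a median log2 fold change of -0.56. Fst, follistatin, which binds activins (-1.96 ± 0.58), was among the lower ones. So were, chosen after their values were seen, Gli1 (-1.18 ± 0.57), Hhip, a Hedgehog-binding inhibitor (-0.64 ± 0.28), and Calca, which encodes calcitonin and calcitonin gene-related peptide (-0.76 ± 0.31). Without PV1 the list had 3 lower and 1 higher. The higher member was Wnt4, a ligand of decidualization (1.20 ± 0.47), which gave 0.07 without PV4, whose level was 7.81 log2 CPM against 4.07 to 5.58 in the other mutants. Pgr, the progesterone receptor, gave 0.35 ± 0.50 and Esr1, estrogen receptor alpha, 0.40 ± 0.33.

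Per3 and Hlf lay lower in PV1 and PV4 than in the other 4 mutants, while Bhlhe40 was highest in PV1. Per3, a period gene whose promoter is shown above, lay at 4.34 (PV1), 4.91 (PV4), 5.76, 6.73, 6.94 and 7.80 log2 CPM in the mutants. WT mice lay at 3.93 to 6.00, so 3 mutants lay above all of them, and the difference was 1.24 ± 0.47 (exact permutation p 0.0711). Of 19 clock and output genes 6 were higher and 0 lower at an unadjusted p under 0.05, against 2.12% and 1.4% of all targets, with a median of 0.36. They included Bhlhe40, a repressor of the clock (0.98 ± 0.27, and 0.74 without PV1), Nr1d2, a nuclear receptor of the clock (0.81 ± 0.32), Hlf, a D-box binding factor (1.24 ± 0.50), and, chosen after their values were seen, Nr1d1 (0.77 ± 0.36) and Tef (0.83 ± 0.39). Without PV1 there were 8 higher and 1 lower, without PV2 there were 4 higher, and with age in the model 1 was higher. In mice aged 4.0 to 6.3 months Per3 gave 0.25 ± 0.41, Hlf 0.21 ± 0.47, Nr1d2 0.29 ± 0.34, Nr1d1 0.06 ± 0.31 and Tef 0.09 ± 0.38. Bhlhe40 gave 1.21 ± 0.29 there. That setting leaves out PV2 and PV5, aged 2.4 months, and WT2 and WT3, aged 7.4 and 9.0 months. Clock genes vary with time of day, which is not given here, so its part in the result was not tested.

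Vessel markers were higher at an unadjusted p under 0.05 in 3 of 11 endothelial genes and lower in 0, against 2.12% and 1.4% of all targets. Kdr, the VEGF receptor, gave 0.81 ± 0.27, Vwf, von Willebrand factor, 0.82 ± 0.28 and Lyve1, a marker of lymphatic vessels, 0.81 ± 0.30. In Vwf and Lyve1 6 of 6 mutants lay above the WT median and in Kdr 5 of 6, yet the groups overlapped in each. The count was 4 without PV1, 3 without PV2 and 4 with age in the model. With age Kdr gave 0.46 ± 0.28 and did not pass (edgeR unadjusted p 0.116). Pecam1, another member, did (0.46 ± 0.21), as did Vwf (0.90 ± 0.33) and Lyve1 (0.99 ± 0.33). The summed list was highest in PV5, at 1296.5 CPM against 669 to 805 CPM in the other mutants and 564 to 744.5 CPM in WT mice.

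Matrix genes gave few differences in either direction, and their counts stand against 2.12% higher and 1.4% lower over all targets. Of 18 collagens 0 were higher and 2 lower, Col15a1 (-1.28 ± 0.48), a collagen of basement membranes, and Col14a1 (-0.86 ± 0.41), a fibril-associated collagen at 2.46 times the negative probes in the mutants. Col6a5, Col8a1 and Col17a1 were listed too but are not among the targets tested, so they have no value here. The study reports Col6a5, Col7a1 and Col17a1 as raised in mutant uterus by qPCR and western blot. Col1a1 lay at 9.49 to 13.21 log2 CPM in the mutants and 10.54 to 12.42 in WT (0.52 ± 0.46), and the collagen list had 1 lower without PV1 and 1 without PV2. Col7a1, the collagen of anchoring fibrils, gave 0.45 ± 0.46, and -0.16 without PV4. Of 24 matrix, protease and fibrosis genes 2 were higher, Timp3, a protease inhibitor (0.67 ± 0.26), and Ccn2 (0.65 ± 0.28), and 1 lower, Fbn1, fibrillin 1 (-0.74 ± 0.26), and 1 was higher without PV1. Of 14 fibroblast markers Fbln1, fibulin 1, was the 1 higher (1.06 ± 0.32). Smooth muscle gave 2 of 10 higher, Acta2 (1.03 ± 0.44) and Myh11, smooth muscle myosin (0.84 ± 0.39), the median of its 10 genes was 0.40, and 5 were higher with age in the model. The summed level of the 10 genes had a median of 1921 CPM in the mutants and 1244 CPM in WT mice, with overlapping ranges. With the mean log2 CPM of the 10 genes as a covariate edgeR called 0 targets at an adjusted p under 0.05. The main fit also called 0, so this count cannot show what part smooth muscle has.

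Hormone response and developmental genes were mixed, against the same background shares. Of 15 glucocorticoid response genes 2 were higher, Cdkn1a, a cell cycle inhibitor (1.01 ± 0.34, and 0.41 without PV1), and Nr3c1, the glucocorticoid receptor (0.57 ± 0.21; exact permutation p 0.00117), and Klf9 was lower. Of 13 estrogen response genes 1 was higher, Fgf10, a growth factor of stroma (0.90 ± 0.32), and 1 lower, Greb1, a cofactor of the estrogen receptor (-0.80 ± 0.37). Igf1, insulin-like growth factor 1, lay at 4.55, 6.87 and 9.23 log2 CPM in the mutants and 6.29, 8.70 and 9.69 in WT, an overlap with a difference of -1.12 ± 0.62. Of 23 stromal Wnt and growth factor genes 3 were higher, among them Inhba, an activin subunit (0.74 ± 0.23). Of 15 posterior Hox and Mullerian genes 1 was lower, Msx1, a homeobox factor of implantation (-0.84 ± 0.35), and Hoxa10 and Hoxa11, chosen after their values were seen, gave -0.86 ± 0.47 and -0.75 ± 0.44. Without PV1 the glucocorticoid list had 1 higher, and the estrogen and posterior Hox lists had 0 lower. With age in the model the posterior Hox list had 5 lower and the estrogen list 4 higher and 2 lower. The background there was larger, with 656 higher and 510 lower of all 14881 targets.

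No proliferation gene of 18 passed an unadjusted p under 0.05, and Mki67 gave -0.05 ± 0.29. The gland (7 of 10 listed genes tested), squamous epithelium (3 of 16), mesothelium (4 of 7) and erythroid (2 of 6) lists also had 0 members past it. Krt5, Krt14 and Trp63 were among the squamous genes not tested, so that list says little of this cell type. Of 12 columnar epithelium genes 1 was higher, Cldn7, a tight junction protein (0.69 ± 0.31, and 0.08 without PV1). Without PV1 the columnar list had 0 higher and 1 lower. Of 12 decidual genes 2 were higher and 1 lower, of 13 proteoglycan genes 1 and 1, and of 6 adipocyte genes 0 and 1, the fatty acid transporter Cd36 (-1.61 ± 0.54). With age in the model no adipocyte gene passed. Without PV1 the decidual list had 1 higher and the proteoglycan list 0 lower.

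**Figure D3:**
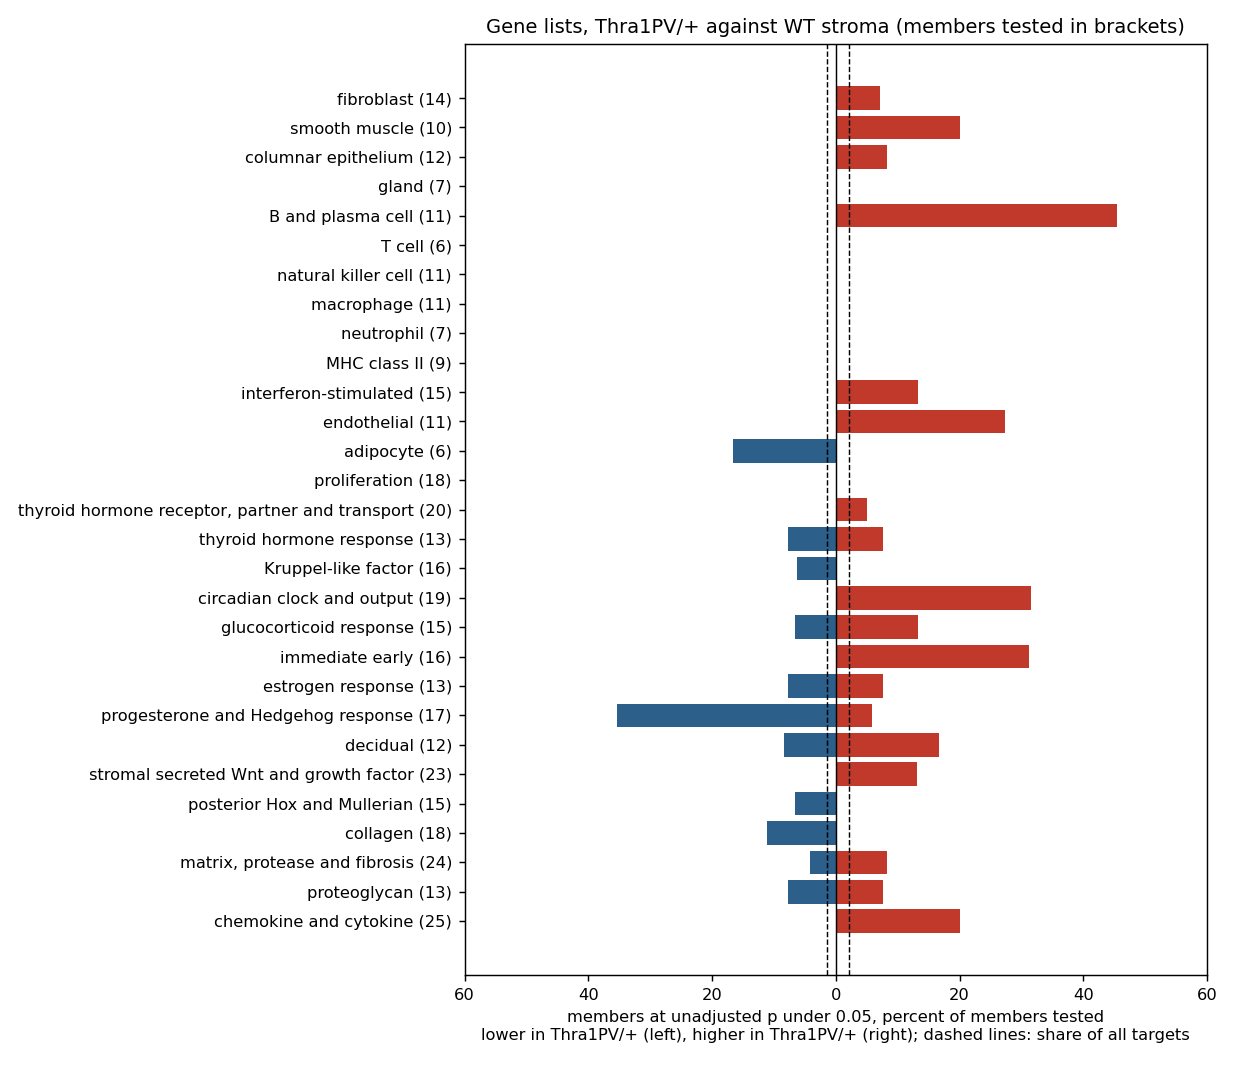
Share of the tested members of each gene list (percent, horizontal axis) at an unadjusted p under 0.05, lower in Thra1PV/+ stroma to the left and higher to the right, with dashed lines for the shares over all targets (1.4% and 2.12%). The B and plasma cell list has 5 of 11 members to the right and the progesterone and Hedgehog list 6 of 17 to the left.

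The mutants were younger than the WT mice, and the age difference touches these comparisons. With genotype in the model, edgeR called 26 of 14881 targets for age at an adjusted p under 0.05 (0.175%), 20 higher and 6 lower with age. The higher ones included, chosen after their values were seen, Cd68, a lysosomal protein of macrophages (0.37 ± 0.07 log2 per month), Ccl8, a chemokine (0.75 ± 0.13), and Fcrls (0.40 ± 0.06). The lower ones included Gli1 (-0.66 ± 0.13), Myc, a growth-promoting transcription factor (-0.49 ± 0.08), and Pkdcc, a secreted kinase of matrix proteins (-0.74 ± 0.13). These 26 kept their direction when each mouse was left out, which is not separate support because they were called in the same mice. The count was 0 without WT2, WT3, WT4 or WT7 and 5 without PV2, 16 without WT1, 43 without PV3, 167 without PV6 and 184 without PV1.

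Of 11 macrophage genes 10 were higher with age at an unadjusted p under 0.05 and 1 was called, and of 17 progesterone and Hedgehog genes 7 were lower, against 1109 higher and 1013 lower among all targets. With age in the model, the genotype difference of Ptch1 was -2.17 against -1.61 without it, and that of Gli1 -1.97 against -1.18. That of Klf9 was -1.21, of Sult1d1 -2.06 and of A2m 2.29. The same model had 656 targets higher and 510 lower in the mutants at an unadjusted p under 0.05, and 0 at an adjusted p under 0.05. With age, 12 of 15 interferon-stimulated genes were higher in the mutants and 10 of 25 chemokines and cytokines. Both lists were highest in PV1. The interferon list summed to 3428.6 CPM there, 451 to 1108 CPM in the other mutants and 453.77 to 1900.5 CPM in WT mice. The chemokine list summed to 3769.9 CPM in PV1, 776 to 1408 CPM in the other mutants and 994 to 1566.5 CPM in WT mice. The genotype difference with age was not fitted without PV1.

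**Figure D4:**
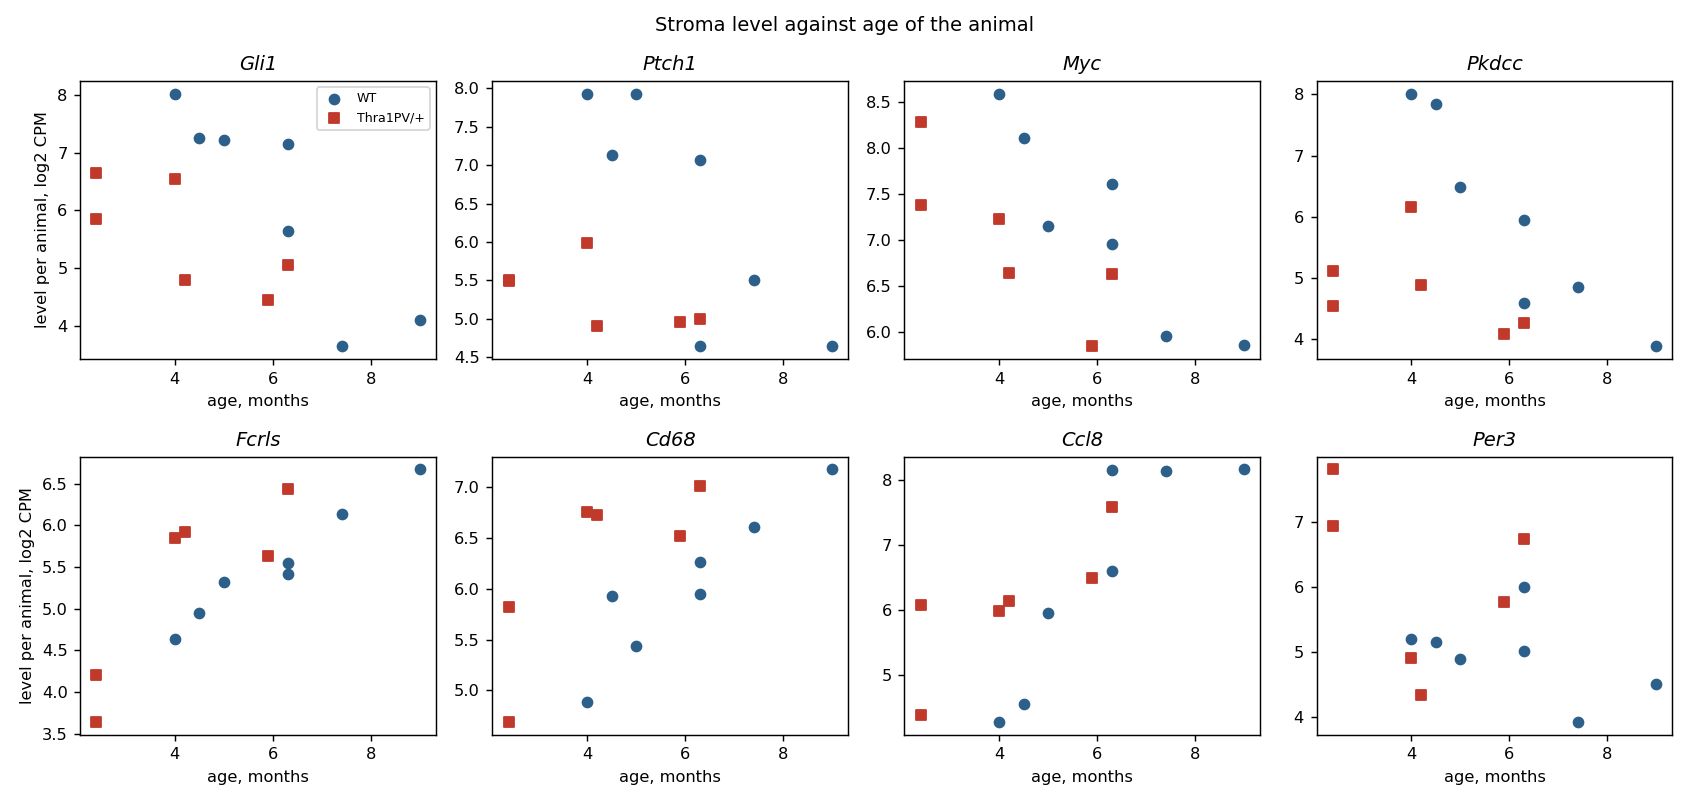
Stroma level (log2 CPM, vertical axis) of 8 targets against age (months, horizontal axis) in 7 WT mice (circles) and 6 Thra1PV/+ mice (squares). With genotype in the model Gli1, Myc and Pkdcc are lower and Fcrls, Cd68 and Ccl8 higher with age, though single mice depart from this. Pkdcc lies at 5.11 and 4.54 in PV2 and PV5, aged 2.4 months, and at 8.01 in WT4, aged 4.0 months.

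The genotype difference was then set against that in the epithelium, with the animal as a block, over the 13 mice with both compartments. In epithelium all 14 mice entered, WT6 included, when the genotype difference was fitted on its own. Klf9 gave -1.09 ± 0.21 in epithelium against -1.31 ± 0.28 in stroma and Sult1d1 -2.15 ± 0.38 against -1.76 ± 0.34, and the tests of these differences gave edgeR unadjusted p of 0.399 and 0.407. edgeR called 0 of 14881 targets for genotype by compartment at an adjusted p under 0.05 (0.0%), with a lowest adjusted p of 0.579, and 1066 at an unadjusted p under 0.05 (7.16%). DESeq2 called 1, Ccn2, at an adjusted p of 0.0416.

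Ccn2, a matricellular growth factor, gave a log2 fold change of 0.65 ± 0.28 in stroma and -2.02 ± 0.51 in epithelium, a difference of 2.39 ± 0.44. In epithelium it had a median of 4.11 log2 CPM and a highest value of 4.94 in the mutants and lay at 4.86 to 7.82 in WT. Cxcl10 gave a difference of 2.19 ± 0.45, and 1.56 without PV1, and Dscam, a cell adhesion molecule, 1.01 ± 0.23. In the other direction were Klk11, a kallikrein protease (-1.59 ± 0.34), Cdc25a, a cell cycle phosphatase (-0.90 ± 0.20), and Wdr43, a ribosome assembly factor (-0.98 ± 0.22). The Klk11 log2 fold change was 1.99 ± 0.40 in epithelium and 0.18 in stroma, where edgeR's unadjusted p was 0.879.

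Il33, an alarmin cytokine, gave -0.20 ± 0.28 in stroma, where mutants lay at 3.64 to 4.72 log2 CPM and WT mice at 3.68 to 4.71, about 2 times the negative probes (1.99 in the mutants). In epithelium it gave 1.54 ± 0.40, and the difference of the effects was -1.39 ± 0.37. Col1a1 gave 0.52 ± 0.46 in stroma and -0.18 ± 0.42 in epithelium, with a difference of 0.85 ± 0.25. A2m was 2.32 ± 0.52 in stroma and 0.49 ± 0.46 in epithelium, with a difference of 1.62 ± 0.53, and Plekha4 0.90 ± 0.21 against -0.04 ± 0.27.

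**Figure D5:**
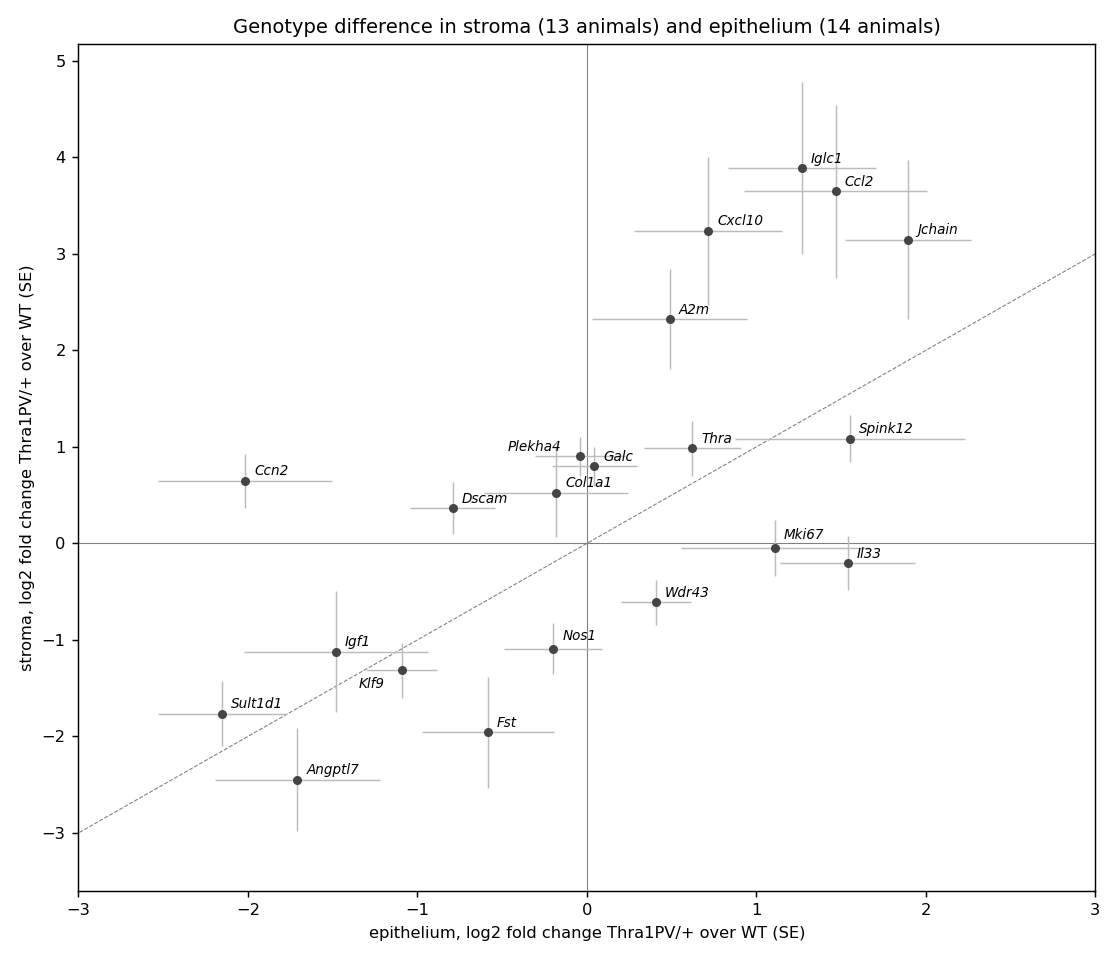
Log2 fold change of Thra1PV/+ over WT with its SE in stroma (vertical axis) and epithelium (horizontal axis) of 21 named targets, with a dashed line where both are equal. Klf9 (-1.31 and -1.09) and Sult1d1 (-1.76 and -2.15) lie near the line, Ccn2 and Il33 far from it, and without PV1 the stroma values of Ccl2 and Cxcl10 are 0.33 and 1.06.

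For the median target, regions of the same mouse differed at least as much as the means of mice did. Over 10 mice with at least 2 regions (32 regions), the median target had an SD of 0.443 on the log2(Q3 value + 1) scale between the regions of a mouse and of 0.396 between the means of mice of a genotype. The SD between means also holds part of the spread between regions. With that part removed, the remaining animal component exceeded the variance between regions in 25.2% of targets. In edgeR's fit the biological coefficient of variation was 0.277.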

How the data were processed

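GeoMx Whole Transcriptome Atlas libraries of mouse uterus regions were analysed from the deposited tables. The authors' raw table holds expected counts for 19962 targets, with 1 in place of 0, and the deposited normalised table holds signal values, each region's counts over that region's third-quartile factor, for 14881 targets, which were the targets tested here. The submitters' notes name R 4.1.2, Space Ranger and mm10. The number of columns without a sample was 0. Gene positions are from GENCODE on GRCm38.

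Counts were rounded and summed per mouse, and tested with edgeR 4.0.16 (quasi-likelihood, TMM) in R 4.3.3 with Benjamini-Hochberg adjustment, with DESeq2 1.42.0 and limma 3.58.1 as alternatives. An exact two-sided permutation test over 1716 divisions of the mice was run for single genes. For genes named for their low p in these data it is not separate support. SEs were derived from the F statistic, and for 157 targets edgeR's p was over 2 times that implied by the SE. Genotype by compartment was fitted with the animal as a block. The pairing comes from the same mouse giving both compartments, and deviations of the paired sums correlated at 0.153 to 0.522 in 13 of 13 mice. The scripts were tested on simulated data.

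Named by rule were genes of the study's text (Thra, Thrb, Klf9, Hr, Il33, Pgr, Esr1, Col7a1 and Mki67). The rule also listed Il1b, Ccl2, Igf1, Wnt4, Msx1, Fst and Col1a1, which were not found in that text. It further took the 10 per direction with the lowest p at 2 or more times the negative probes. Up to 4 per gene list (33 lists) and 3 per direction for genotype by compartment completed it. Outside that rule, and chosen after their values were seen, were Acta2, Myh11, Krt8, Dcn, Epcam, Igha, Igkc, Ighm, Bcl3, Zfp36, Ier3, Cxcl1, Ccl7, Hoxa10, Hoxa11, Gli1, Hhip, Calca, Nr1d1, Tef, Mrps6, Pomk, Rfng, Rhbdf1, Setbp1 and the age genes. Some results are not reported here. The comparison and the lists were chosen with earlier results of these data known.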

Additional observations from a re-analysis of the deposited data

Results flagged for a closer look

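Of 78 groups of 6 or 7 mice tested (39 genes), 4 held a mouse far from the rest, and chance gives about 1 in 20. Ccl2 was 10.33 log2 CPM in PV1 against 4.27 to 5.25 in the other mutants. The other 3 were WT8, with Hr at 1.64 against 3.88 to 4.55, Mki67 at 3.52 against 4.76 to 5.71 and Spink12 at 3.02 against 3.83 to 4.37.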

How the results depend on the processing

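Each of 34 genes was refitted under 26 alternative settings, 884 values in all. Of these, 851 kept their direction and side of the threshold, 5 passed it (Klf9 in 3, Sult1d1 in 2) and 28 reversed, and 25 of 34 genes had no reversal. The main fit called 0 targets, so a gene kept its side whenever a fit did not call it. Many of the genes were named for their low p in these data and many settings left out 1 mouse only. A kept direction is therefore not separate support. At an adjusted p under 0.05 the stroma count of 0 was 2 with DESeq2 and 2 with limma over regions, and 0 to 1 when each mouse was left out (1, Klf9, without PV4). At an unadjusted p under 0.05 the count of 524 was 1166 with age as a covariate, 986 in mice of 4.0 to 6.3 months, and 413 to 837 when each mouse was left out, with 837 without PV3 and 795 without PV4. For genotype by compartment, where the animal is the block that pairs the sums, the fit with no replicate block gave 524 against 1066 at an unadjusted p under 0.05, DESeq2 gave 1 adjusted call, and leaving out each mouse gave 0 adjusted calls and 812 to 1498 unadjusted. The age count of 26 was 52 under upper-quartile scaling and 0 to 184 when each mouse was left out, an alternative chosen after seeing the data. Of 385 list members 53 were at an unadjusted p under 0.05. This count was 92 with age, 31 with limma on animal means and 40 to 50 without PV1 or PV2, and 0 had groups that did not overlap. The cause of these shifts was not tested.

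Reversals were of small log2 fold changes or under the plates and age settings. Thrb was 0.015 with limma on means and 0.0054 with age. Hr was 0.033 with the edgeR expression filter, 0.0096 with no filter, 0.10 with limma on means, 0.039 with age, 0.068 at 4.0 to 6.3 months, 0.18 with the smooth muscle covariate and -0.23 to 0.11 leaving out each mouse. With age as a covariate Pgr was -0.084, Esr1 -0.12, Col7a1 -0.019 and Mki67 0.29, and at 4.0 to 6.3 months Pgr was -0.53, Esr1 -0.24 and Mki67 0.16. With both plates as labelled, where region labels of the second plate may be shifted in part by 1 well, Il33 was 1.03, Msx1 0.67 and Iglc1 -0.11, and Sult1d1 was -0.37. Leaving out each mouse, Col7a1 ran from -0.16 to 1.05 and Mki67 from -0.25 to 0.14. In PV2 the low depth leaves 21.5% of targets at the value that replaces 0, so low levels there are not distinguishable.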
